A study of Mus musculus with 4 samples.

Results

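The cytosolic chaperonin, also called CCT or TRiC, is assembled from subunits encoded by 8 paralogous genes. The genes are Tcp1, Cct2, Cct3, Cct4, Cct5, Cct6a, Cct7 and Cct8. These 8 genes were followed together with Acat3, a thiolase gene that lies tail to tail with Tcp1 on mouse chromosome 17. The 9 genes were chosen by name from the 50600 genes counted in each library, because earlier values from the same libraries had placed Acat3 far above Tcp1. Their counts per kilobase (kb) of exons on the annotated strand, and those of genes whose exons overlap theirs on the other strand, are therefore given as a description with no test. The samples were 4 RNA libraries of primary T-helper 2 (Th2) cells from C57BL/6NJ mice, numbered as biological replicates 1 to 4. No other group, genotype or treatment is given, which leaves 2 kinds of comparison: one gene with another inside a library, and one library with the rest. The labels record no sex, age or developmental stage, cite a CD4 T cell differentiation protocol, and give the 4 libraries separate biosamples under a single donor identifier. P-values therefore measure only the spread between these libraries, which may be technical. A time of 72 h stands in the file headers without further explanation.

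CCT is a double ring of stacked subunits that encloses newly made proteins and folds them with energy from ATP. Actin, tubulin and many WD40-repeat proteins depend on it, and the co-chaperone prefoldin hands actin and tubulin chains to it. Every ring holds each paralog in a fixed place, so the complex needs all of them. Activated T cells are known for rapid growth and for remodelling of the actin and tubulin cytoskeleton. Acat3 belongs to the family of acetoacetyl-CoA thiolases and is closely related to Acat2, the cytosolic enzyme that joins acetyl-CoA units.

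Replicate 2 stood apart with 5016 counts, against 2388255, 1929880 and 1713199 in replicates 1, 3 and 4. In replicate 2 the floor of 3 counts corresponds to 598 CPM, the counts scaled to a fixed library total, against 1.26 to 1.75 CPM in the other libraries. Levels and ratios were therefore taken from replicates 1, 3 and 4. Genes with exons on the other strand made up 16.2% of all genes and held between 84.8% and 94.2% of the counts of a library. Among nuclear protein-coding genes the median level was 1.12 CPM per kb with such exons and 0.0351 without. The part that this difference plays in the members' values was not tested, and the sources used here do not give the strand kept by the library kit. The T cell markers were above 1 TPM in 6 of 6, and those of Th2 cells in 5 of 5, beside 57.2% of all genes tested. TPM is a count scaled for gene length and library total. Of these markers, Cd247 lies opposite Pou2f1, and Cd3e, Gata3 and Il5 also have exons opposite another gene. Of the B cell, myeloid, cytotoxic and germ cell markers, Ms4a1, Itgam, Prf1, Ddx4, Dazl and Tnp1 had 0 counts in all 4 libraries. Csf1r, a myeloid receptor, had 1091, 2, 910 and 878 counts and lies opposite Hmgxb3. Cd79a had 5, 1, 11 and 17 counts, Cd68 had 8, 0, 6 and 6, and Sycp3, opposite Chpt1, had 21, 0, 11 and 12, all above 1 TPM. Lyz2, Cd8a and Gzmb had between 0 and 4 counts per library.

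The first exons of 3 subunit genes lie within or beside a gene that runs the other way, and the start regions show how closely the transcribed parts are packed. The sequences below are 300-base windows around the RefSeq starts (GRCm38.p6), most of it before the start, read 5′ to 3′ on the strand of the subunit gene. Capitals mark bases that the deposited annotation places in exons of the gene opposite, which are 267 bases of Mrpl18 for Tcp1, 300 bases of Psph for Cct6a and 29 bases of Pradc1 for Cct7. The windows are chr17:12916079-12916378 for Tcp1, chr5:129787106-129787405 for Cct6a and chr6:85451255-85451554 for Cct7, each on the plus strand.
Tcp1: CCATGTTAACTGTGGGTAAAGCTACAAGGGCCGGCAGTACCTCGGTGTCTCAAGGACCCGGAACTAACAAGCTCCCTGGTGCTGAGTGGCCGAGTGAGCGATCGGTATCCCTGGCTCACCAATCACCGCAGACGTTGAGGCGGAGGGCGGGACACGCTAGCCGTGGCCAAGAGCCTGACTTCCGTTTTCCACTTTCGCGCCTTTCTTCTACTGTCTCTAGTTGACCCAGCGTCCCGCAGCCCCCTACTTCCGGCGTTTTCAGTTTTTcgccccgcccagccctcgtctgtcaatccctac
Cct6a: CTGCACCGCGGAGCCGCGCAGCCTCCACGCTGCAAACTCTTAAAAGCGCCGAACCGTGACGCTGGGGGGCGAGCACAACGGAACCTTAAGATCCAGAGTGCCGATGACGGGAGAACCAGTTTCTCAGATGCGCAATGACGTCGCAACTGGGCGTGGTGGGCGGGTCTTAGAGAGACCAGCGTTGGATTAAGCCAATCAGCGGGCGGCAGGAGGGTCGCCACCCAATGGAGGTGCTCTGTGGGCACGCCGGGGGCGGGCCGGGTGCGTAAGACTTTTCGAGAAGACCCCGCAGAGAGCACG
Cct7: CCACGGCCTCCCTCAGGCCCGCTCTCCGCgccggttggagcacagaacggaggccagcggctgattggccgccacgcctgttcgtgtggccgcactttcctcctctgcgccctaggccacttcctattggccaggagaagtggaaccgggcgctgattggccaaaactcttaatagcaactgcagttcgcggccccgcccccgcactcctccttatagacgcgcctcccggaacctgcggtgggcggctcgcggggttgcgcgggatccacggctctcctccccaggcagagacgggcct

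Windows were at hand for 7 of the 9 genes, with 2 each for Cct2 and Cct5. Short motifs were searched on both strands, and no overlap between them was removed. The GC box GGGCGG, bound by Sp1-type factors, was in 8 of the 9 windows and in 35.7% of the 32851 windows of all genes. The ETS core CGGAAG was found in 4 of the 9 windows, those of Cct2, Cct8 and Tcp1, and in 16.9% of all windows. The letters CCAAT were found in 4 of the 9 windows, those of Cct3, Cct6a, Cct7 and Tcp1, and in 37.4% of all windows. The heat shock element core GAANNTTC was found only in the second window of Cct2 among these, against 7.86% of all windows. The NRF1 palindrome was found in 1 of the 9 windows, of Cct5, and in 0.971% of all windows. No window held the E-box CACGTG or the TATAAA box, which 7.15% and 13.6% of all windows hold. The median GC content was 60.3% in the 9 windows and 52.7% in all windows. These matches describe letters in the windows and not sites of binding.

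By counts on the annotated strand, Acat3 was the highest of the 9 genes and Tcp1 the highest subunit, each by more than the spread between replicates. Whether strand setting 1 is the strand kept by the kit was not tested. If it is not, the counts of a gene with opposite-strand exons may come from RNA of the gene opposite, and those of Acat3 from RNA of the Tcp1 strand. The counts of genes without such exons, among them Cct2, Cct3, Cct4 and Cct5, may then not measure their own RNA. Acat3 (chr17:12923833-12940402, minus strand, 2345 exonic bases, mm10) had 12081, 13, 10946 and 8502 counts in replicates 1 to 4. Per kb of exons these were 5152, 4668 and 3626 counts in replicates 1, 3 and 4, a mean level of 2231 ± 164 CPM per kb (SD, n = 3). The gene had rank 47, 40 and 44 by counts per kb among all 50600 genes in these libraries. It took 0.506% of the counts of replicate 1 (Wilson 95% interval 0.497 to 0.515), 0.567% of replicate 3 (0.557 to 0.578) and 0.496% of replicate 4 (0.486 to 0.507). The interval of replicate 3 lay above those of replicates 1 and 4, and such intervals cover counting error only.

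Tcp1, which encodes the alpha subunit, lies at chr17:12915701-12925067 on the plus strand with 5030 exonic bases. It had 2243, 4, 1701 and 1437 counts in replicates 1 to 4, or 446, 338 and 286 counts per kb in replicates 1, 3 and 4. Its mean level was 176 ± 10.02 CPM per kb (SD, n = 3), higher than 99.3% of nuclear protein-coding genes. Acat3 exceeded Tcp1 per kb by 11.6-fold, 13.8-fold and 12.7-fold in replicates 1, 3 and 4. The log2 ratio was 3.66 ± 0.13 (SD, n = 3), the least variable of the 5 opposite-strand pairs described here. In replicate 2, which no level uses, the 13 counts of Acat3 were 0.259% of the library (Wilson 95% interval 0.152 to 0.443), an interval below the share of Acat3 in each of the other libraries. The 4 counts of Tcp1 there were 0.0797% (0.0310 to 0.205), an interval that held the shares of Tcp1 in the other libraries.

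The exons of both genes share 571 bases at chr17:12924260-12924830. The shared stretch lies in the last exon block of each, block 10 of 10 in Tcp1 and block 9 of 9 in Acat3. It makes up 24.3% of the exonic bases of Acat3 and 11.4% of those of Tcp1. The deposited files hold a single count per gene, so where along either gene the fragments lay was not analysed here. The related thiolases were far lower on the same scale. Acat2, the cytosolic thiolase, had 11, 0, 3 and 6 counts, and Acat3 exceeded it per kb by 1191-fold, 3958-fold and 1537-fold in replicates 1, 3 and 4. Acat1, the mitochondrial acetoacetyl-CoA thiolase, had 46, 0, 20 and 19 counts, and the excess of Acat3 was 421-fold, 877-fold and 717-fold. The 3 and 6 counts of Acat2 make these ratios imprecise. Acat1 and Acat2 have no opposite-strand exons, while Acat3 has them. Nuclear protein-coding genes of these classes had medians of 0.0351 and 1.12 CPM per kb. The part of that difference in the ratios was not tested. Acat2 and Acat3 are close relatives, so reads that fit both may have been lost or assigned to either.

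The other 7 subunits lay below Tcp1 in each of replicates 1, 3 and 4. Cct8, the theta subunit (chr16:87483326-87495873, minus strand), had 231, 1, 84 and 117 counts and a mean of 22.5 ± 8.62 CPM per kb (SD, n = 3). Cct6a, the zeta subunit (chr5:129786998-129846371, plus strand), had 153, 0, 86 and 130 counts and 17.0 ± 4.37 CPM per kb. Cct2, the beta subunit (chr10:117051001-117063814, minus strand), had 99, 0, 20 and 106 counts and 14.8 ± 10.1 CPM per kb. For all 3 genes replicate 3 was the lowest of the deep libraries, and in Cct2 it was far from both others.

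Cct5, the epsilon subunit (chr15:31590800-31601847, minus strand), had 129, 1, 30 and 86 counts and 14.2 ± 7.55 CPM per kb. Cct4, the delta subunit (chr11:22990519-23003780, plus strand), had 122, 0, 41 and 94 counts and 10.1 ± 4.38 CPM per kb. Cct7, the eta subunit (chr6:85451514-85468475, plus strand), had 176, 0, 71 and 129 counts and 9.14 ± 3.21 CPM per kb. These 3 subunits overlapped with one another and with Cct2 in their ranges over replicates. Cct3, the gamma subunit (chr3:88297116-88321767, plus strand), had 83, 0, 21 and 46 counts and 3.79 ± 1.91 CPM per kb. It was the lowest subunit in each of replicates 1, 3 and 4.

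**Figure D1:**
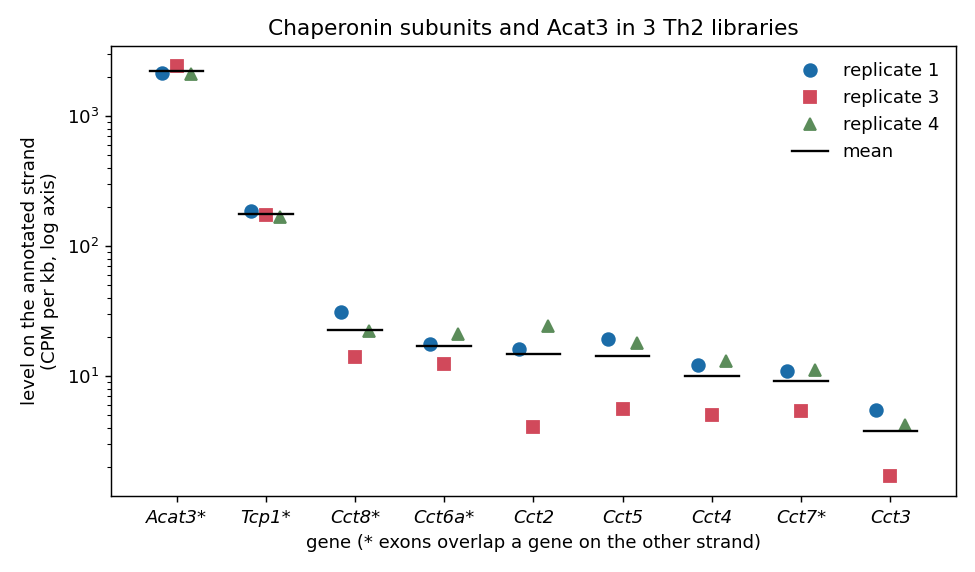
Levels on the annotated strand (CPM per kb of exons, log axis) of Acat3 and the 8 chaperonin subunits in replicates 1, 3 and 4, with the mean as a line and asterisks on genes whose exons overlap a gene on the other strand. Acat3 at 2231 and Tcp1 at 176 CPM per kb stand clear of the other subunits, which have means between 3.79 and 22.5 CPM per kb.

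By mean level the order was Acat3, Tcp1, Cct8, Cct6a, Cct2, Cct5, Cct4, Cct7 and Cct3. Among neighbours in this order, Acat3 and Tcp1, and Tcp1 and Cct8, did not overlap over the 3 libraries. All other neighbours overlapped. Tcp1 exceeded the next subunit per kb by 5.96-fold in replicate 1 (Cct8), 12.4-fold in replicate 3 (Cct8) and 6.89-fold in replicate 4 (Cct2). Without Tcp1 the highest and lowest subunits of a library were 5.74-fold, 8.25-fold and 5.74-fold apart in replicates 1, 3 and 4. The assembled ring holds its subunits in equal numbers, and these counts are of RNA fragments and not of protein. The lengths used are merged exons of all transcripts, between 1.09 and 1.91 times the longest transcript, and with the longest transcript the means became 259 for Tcp1, 2440 for Acat3 and 7.24 CPM per kb for Cct3. The testis-type paralog Cct6b had 6, 0, 0 and 3 counts, and the paralog Cct8l1 had 0 in all 4 libraries.

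On the annotated strand, Tcp1 alone held most of the raw counts of the 8 subunit genes, with no division by exon length. All 8 subunits together had 3236, 2054 and 2145 counts in replicates 1, 3 and 4, and Tcp1 took 69.3%, 82.8% and 67.0% of these. Cct6a, Cct7 and Cct8, which also have exons on the other strand, took 17.3%, 11.7% and 17.5%. Cct2, Cct3, Cct4 and Cct5, which have none, took 13.4%, 5.45% and 15.5%. Replicate 3 thus had the largest share of Tcp1 and the smallest share of both other sets. The ratio of the last set to the set of Cct6a, Cct7 and Cct8 was 0.773, 0.465 and 0.883.

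**Figure D2:**
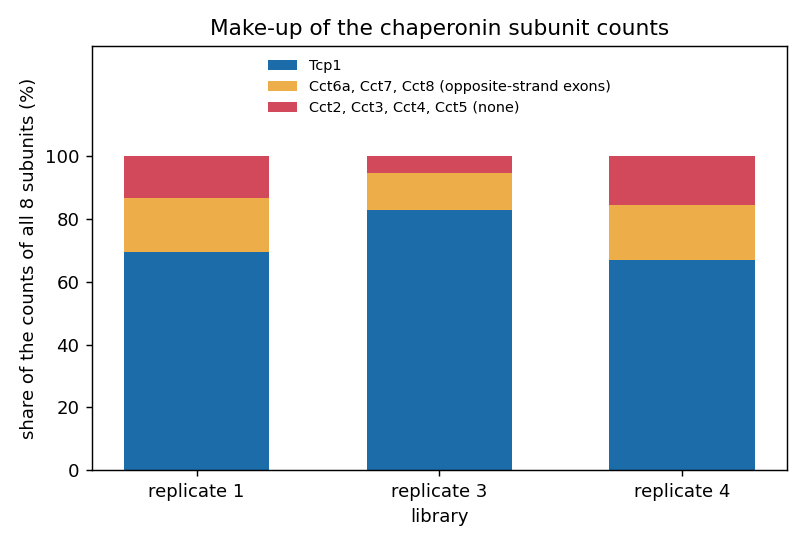
Share (%) of the summed counts of the 8 chaperonin subunits held by Tcp1, by the 3 other subunits with opposite-strand exons and by the 4 subunits without, in replicates 1, 3 and 4. Tcp1 holds 69.3%, 82.8% and 67.0%, and the 4 subunits without such exons hold 13.4% and 15.5% in replicates 1 and 4 and 5.45% in replicate 3.

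Of the 8 subunit genes, 4 have exons that overlap a gene on the other strand. Tcp1 has both Acat3 at its end and Mrpl18, a mitochondrial ribosomal protein gene (chr17:12911349-12916345), at its start. Mrpl18 had 24, 0, 15 and 16 counts, or 17.2, 10.7 and 11.4 counts per kb in replicates 1, 3 and 4, and shares 141 exonic bases with Tcp1. The log2 ratio of Tcp1 to Mrpl18 was 4.73 ± 0.18 (SD, n = 3), with Tcp1 higher in each library. Under the annotated strands Tcp1 was far above the gene at its head and far below the gene at its tail. Under the other strand setting the direction of this and of the other pair ratios may turn, which was not tested.

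Cct6a runs head to head with Psph, the phosphatase of the last step of serine synthesis (chr5:129765558-129787449, minus strand). Psph had 1962, 6, 1825 and 1517 counts, or 453, 422 and 350 counts per kb against 42.3, 23.8 and 35.9 for Cct6a in replicates 1, 3 and 4. Psph was 10.7-fold, 17.7-fold and 9.76-fold higher, a log2 ratio of Cct6a to Psph of -3.61 ± 0.46 (SD, n = 3). The first exon blocks of both share 452 bases, and the whole Cct6a start window printed above lies inside Psph exons. The 102 bases of Snora15, a small nucleolar RNA gene, lie within Cct6a on the same strand, and 138 bases of the gene Gm26130 lie in the same way within Tcp1. Under the counter's default, fragments there were counted for neither gene.

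Cct7 runs head to head with Pradc1, which encodes a secreted protein with a protease-associated domain (chr6:85446810-85451970, minus strand). Pradc1 had 167, 0, 124 and 108 counts, or 81.9, 60.8 and 53.0 counts per kb against 26.0, 10.5 and 19.0 for Cct7. It was 3.15-fold, 5.81-fold and 2.78-fold higher, and the log2 ratio of Cct7 to Pradc1 was -1.89 ± 0.56 (SD, n = 3) with 214 shared bases. Cct8 lies tail to tail with Usp16, a histone H2A deubiquitinase gene (chr16:87454703-87483517, plus strand), and shares 192 bases with it. Usp16 had 183, 1, 109 and 116 counts, or 19.4, 11.5 and 12.3 counts per kb against 74.8, 27.2 and 37.9 for Cct8. Here the subunit was the higher gene, with a log2 ratio of 1.61 ± 0.36 (SD, n = 3).

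**Figure D3:**
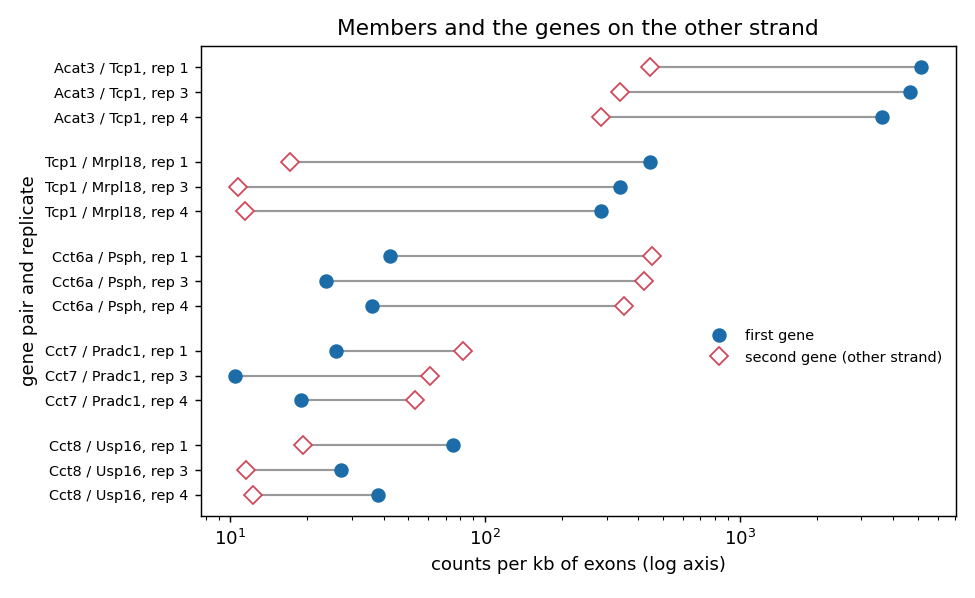
Counts per kb of exons (log axis) of each pair of genes with overlapping exons on opposite strands, 1 line per pair and replicate, with the first gene as a filled point and the gene on the other strand as an open diamond. Acat3 is above Tcp1, Tcp1 above Mrpl18 and Cct8 above Usp16 in replicates 1, 3 and 4, while Cct6a is below Psph and Cct7 below Pradc1.

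Of the 5 pairs of a subunit with its opposite gene, the subunit was the lower in all 3 libraries in 3 pairs and the higher in 2. Among 2369 ordered pairs of protein-coding genes the first gene was lower in each of these libraries in 46.9%. Pairs entered in both orders, so the lower and higher counts, 1112 and 1111, were nearly equal by construction. The share is thus no independent yardstick for the subunits. In size the ratios lay among those of other such neighbours. Of 689 tail-to-tail pairs, 58.2% had a smaller mean log2 ratio than Acat3 and Tcp1, and 26.9% a smaller one than Cct8 and Usp16 (median size 2.96). Of 390 head-to-head pairs, 66.7% were smaller than Tcp1 and Mrpl18, 50.3% than Cct6a and Psph, and 25.1% than Cct7 and Pradc1 (median size 3.60). Without the division by exon length, the log2 ratio of the raw counts was 2.56 for Acat3 to Tcp1 and -0.0088 for Cct8 to Usp16. In the latter pair Cct8 had more raw counts in replicates 1 and 4 and fewer in replicate 3.

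**Figure D4:**
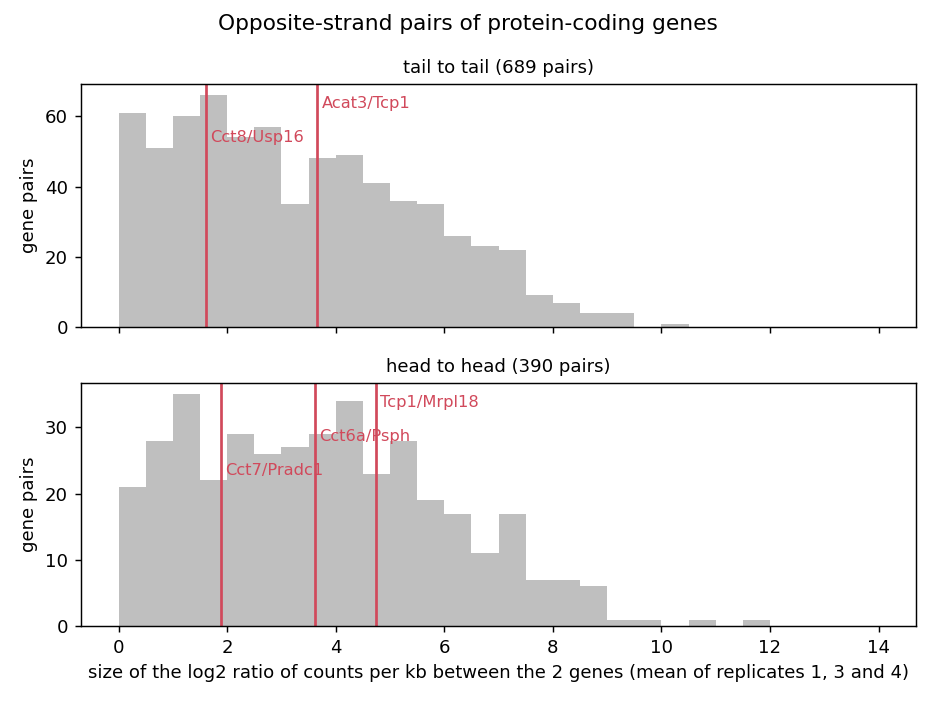
Size of the log2 ratio of counts per kb (mean of replicates 1, 3 and 4) for 689 tail-to-tail and 390 head-to-head pairs of protein-coding genes, as counts of pairs per bin, with red lines at the pairs of the chaperonin subunits and Acat3. The 5 lines fall inside the bulk of both distributions, at 1.61 and 3.66 in the upper panel and at 1.89, 3.61 and 4.73 in the lower.

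Other gene pairs showed ratios much like that of Acat3 to Tcp1. Likeness was measured as the Euclidean distance between the log2 ratios in replicates 1, 3 and 4. The nearest was Nprl3, a regulator of amino acid sensing, over Mpg, a DNA repair glycosylase (distance 0.0745, mean log2 ratio 3.66). Next came Tnk1 over Plscr3 (0.143), Psd over Nfkb2 (0.160), Tmed1 over Dnm2 (0.196) and Nkiras1 over Rpl15 (0.218). Nfkb2, a subunit of the transcription factor NF-kappaB, shares 4 exonic bases with Psd and had 53.8, 34.7 and 33.4 counts per kb where Psd had 629, 432 and 439.

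Across libraries, members were called in replicate 3 and none in replicate 1 or 4. In replicate 3, Cct2, Cct3, Cct4 and Cct5 were lower than in the other libraries under TMM scaling of all genes. Each library was set against the other 3 with edgeR's quasi-likelihood test and Benjamini-Hochberg adjustment over 5969 genes, which compares libraries and not conditions. A lone library gives no spread of its own and is assumed to vary like the other 3, of which replicate 2 had 0, 0, 0 and 1 counts for these 4 genes. The DESeq2 Wald test of the same comparison called no gene. Cct2 fell by 2.14 on the log2 scale (SE 0.46, edgeR adjusted p = 4.30e-04) and Cct5 fell by 1.61 (SE 0.43, edgeR adjusted p = 0.00524). Cct3 fell by 1.35 (SE 0.46, edgeR adjusted p = 0.0312) and Cct4 fell by 1.16 (SE 0.40, edgeR adjusted p = 0.0366). All 4 subunits without opposite-strand exons thus passed the test, where 12.7% of all genes tested and 25.2% of genes without such exons were called lower. Fewer cells with these RNAs, less RNA per cell, and a library-wide shift of genes without opposite-strand exons cannot be told apart in such samples.

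None of the 4 subunits with opposite-strand exons passed, where 4.53% of the genes of that class were called lower. Their log2 changes were -0.86 for Cct7 (edgeR adjusted p = 0.106), -0.79 for Cct8 (0.130), -0.49 for Cct6a (0.438) and 0.22 for Tcp1 (0.816). Acat3 had 0.67 (SE 1.03, edgeR adjusted p = 0.758), where 0.838% of all genes were called higher. The genes opposite the subunits also did not pass, with log2 changes of 0.34 for Psph, 0.11 for Pradc1, -0.17 for Mrpl18 and -0.22 for Usp16. Whether the 4 subunits without such exons differ from the 4 with them was not tested. Over all genes tested the median log2 change in replicate 3 was 0.16 with opposite-strand exons and -0.80 without, and 94.2% of its counts lay in the first class against 90.7% and 91.3% in replicates 1 and 4.

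The calls depended on the scaling and on the libraries in the fit. When TMM factors were taken from genes without opposite-strand exons, a choice made after seeing the data, the median of all genes in replicate 3 moved to 0.81. Under that scaling no member was called, Cct2 stood at -1.37 and Cct5 at -0.82, and Cct6a at 0.31 and Cct8 at 0.041 changed sign. Cct2 and Cct5 remained called with DESeq2 size factors, where 4.36% of all genes were called lower, and with no filter on low counts, where 3.45% were. The Wald test left 9 genes at an unadjusted p under 0.05. Without replicate 2, Cct7 (edgeR adjusted p = 0.0244) and Cct8 (0.0328) were also called lower, and Acat3 was called higher by 0.31 (edgeR adjusted p = 0.00485). In that fit 12.4% of all genes were called lower and 2.79% higher. Without replicate 1, Cct3 lost its call (edgeR adjusted p = 0.157) and Cct7 was called, where 8.97% of all genes were called lower. Without replicate 4, Cct7 and Cct8 were also called, where 12.3% of all genes were.

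**Figure D5:**
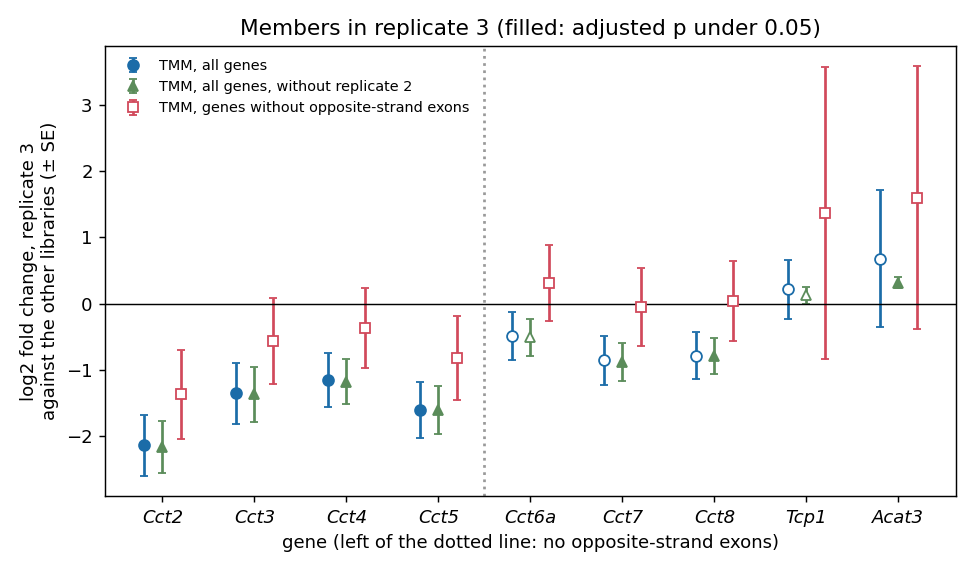
Log2 fold change (± SE) of the 9 genes in replicate 3 against the other libraries, for 3 settings, with filled symbols where the adjusted p is under 0.05. With TMM on all genes Cct2 at -2.14, Cct5 at -1.61, Cct3 at -1.35 and Cct4 at -1.16 are filled, without replicate 2 the values of Cct7, Cct8 and Acat3 are filled too, and with TMM on genes without opposite-strand exons no value is filled and Cct6a and Cct8 turn to 0.31 and 0.041.

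In replicate 1 the 9 genes had log2 changes between 0.041 for Cct6a and 0.83 for Cct3, and none passed, where 0.0503% of genes were called higher and 0% lower. In replicate 4 none passed either, where 0% of genes were called higher and 0.0335% lower. At an unadjusted p under 0.05, 70 genes in replicate 1 and 36 in replicate 4 were found, and no member was among them. Without replicate 3, the log2 changes of Cct2, Cct3 and Cct5 were -0.60, 0.35 and 0.064 in replicate 1. In replicate 4 they were 0.62, -0.33 and -0.077. When replicate 4 or 1 was left out instead, only replicate 3 and the shallow replicate 2 remained for comparison. Without replicate 4, Cct2, Cct3 and Cct5 were called higher in replicate 1, as were 10.7% of all genes tested. Without replicate 1, Cct2 and Cct5 were called higher in replicate 4, as were 8.10% of all genes tested.

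Genes that work with the chaperonin were measured on lists chosen with earlier results known. A limma fit on log2(TPM + 0.1) in replicates 1, 3 and 4 compared levels with 1 TPM and called 57.2% of 10670 genes above and 2.45% below. Of the 6 prefoldin genes, 4 lay above 1 TPM, led by Pfdn1 at 11.8 ± 7.84, Pfdn5 at 7.83 ± 2.85 and Pfdn2 at 7.54 ± 3.70 TPM (SD, n = 3). Vbp1 and Pfdn4 did not pass. Of the prefoldin-like genes, Uri1 and Uxt lay above and Pdrg1 did not pass. Among the phosducin-like and thioredoxin-like cofactors that bind the ring, 1 of 3 tested, Pdcl at 2.78 ± 0.69 TPM, lay above.

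The tubulin cofactors, which fold alpha and beta tubulin after the ring releases them, lay above 1 TPM in 4 of 4 tested. Tbce at 85.5 ± 7.11 and Tbcb at 85.3 ± 6.66 TPM were highest, and both have exons opposite another gene, B3galnt2 and Polr2i. Tbca, with no gene opposite, reached 27.6 ± 13.0 TPM. Actin and tubulin genes lay above in 11 of 12 tested, led by Actb at 88.9 ± 46.8, Tubb5 at 34.0 ± 15.8 and Tubb6 at 25.7 ± 0.69 TPM. Actin and tubulin genes have near-identical copies, so their counts may be split between them. Of the WD40-repeat and other substrates, 5 of 9 tested lay above, such as Cdc20, the activator of the anaphase-promoting complex, at 8.15 ± 2.36 TPM and the G protein subunit Gnb1 at 7.96 ± 3.55 TPM. Rptor, the mTORC1 scaffold, lay below at 0.364 ± 0.122 TPM. Cdc20 and Rptor have exons opposite another gene, as have Pfdn2, Pfdn4 and Uxt of the lists above.

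Other chaperones were measured in the same way. The Hsp70 and Hsp90 list lay above 1 TPM in 10 of 11 tested, with Hsp90ab1 highest at 369 ± 163 TPM. Hsp90ab1, the constitutive cytosolic Hsp90, has no gene opposite and had 2650, 12, 835 and 1335 counts, or 884, 278 and 445 counts per kb. Tcp1 was lower per kb than Hsp90ab1 in replicates 1 and 4 and higher in replicate 3, and its level in TPM was 252 ± 13.6. Unlike Hsp90ab1, Tcp1 has opposite-strand exons, and the part of this in the comparison was not tested. Stip1, which links Hsp70 to Hsp90, reached 42.2 ± 3.62 TPM and Hsp90aa1 reached 40.0 ± 21.5 TPM. The mitochondrial chaperonin genes Hspd1 and Hspe1, which share a start region on opposite strands, had 44.9 ± 19.4 and 19.9 ± 5.17 TPM. Of the heat shock factors Hsf1 lay above at 3.40 ± 1.85 TPM, and Hsf2 did not pass.

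Among the thiolases 4 of 7 tested lay above 1 TPM, and 1 of these 4 is Acat3, whose level was known when the list was made. Acaa1a, a peroxisomal thiolase opposite Myd88, reached 99.8 ± 7.74 TPM with 755, 0, 641 and 477 counts. Acat1 had 5.16 ± 1.89 and Acaa2, a mitochondrial thiolase, 5.08 ± 3.19 TPM. Acat2 at 1.81 ± 0.88 TPM did not pass (limma adjusted p = 0.237). Of the genes that use acetoacetyl-CoA, Hmgcs1 of sterol synthesis at 6.07 ± 4.21 and Oxct1 of ketone use at 3.81 ± 1.42 TPM lay above. Aacs did not pass, and Oxct1 has exons opposite another gene.

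In replicate 3 these listed genes were also counted by strand class, with no test between the classes. Of the 27 tested genes without opposite-strand exons, 12 were called lower by edgeR, and of the 13 with them 1 was, beside 25.2% and 4.53% of all genes of these classes. Over all genes, 1 was called lower with TMM on genes without opposite-strand exons and 0 with the DESeq2 Wald test, so these calls were nearly all lost there. The medians of the log2 changes were -1.01 and -0.26. The largest falls were those of Ahsa1, the Hsp90 activator, which fell by 2.39 (SE 0.60, edgeR adjusted p = 0.00364), and Pfdn1, which fell by 2.36 (SE 0.60, edgeR adjusted p = 0.00403). Actr3 of the Arp2/3 complex fell by 1.88, Hmgcs1 fell by 1.76, Actr2 fell by 1.71 and Hsp90aa1 fell by 1.60. Actb fell by 1.54, Dnaja2 fell by 1.53, Actg1 fell by 1.51, Tuba1a fell by 1.49, Hspa8 fell by 1.45 and Tubb5 fell by 1.04. With opposite-strand exons, Hspd1 fell by 1.00 (SE 0.35, edgeR adjusted p = 0.0355). Tubb6 at 0.11 and Stip1 at 0.13 were without opposite-strand exons and did not pass. In replicate 3 the markers Cd2, Cd4, Cd5 and Trac of T cells, 4 of 6, and Gata3 and Il13 of Th2 cells, 2 of 4 tested, were also called lower, beside 12.7% of all genes. Of these markers only Gata3 has opposite-strand exons. For the others the closer comparison is the class without such exons, given above, whose median log2 change over all genes was -0.80. These calls depend on the same scaling and tool. Il4 had 65, 0, 80 and 59 counts and was not. The part of this in the falls of the subunits was not tested.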

How the data were processed

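RNA was sequenced from 4 libraries of mouse Th2 cells. The deposited values are raw counts, obtained by running featureCounts 1.4.6-p4 over STAR alignments (mm10) and GENCODE vM13 exons, per the file headers. Strand setting 1 was used and both mates had to map, per the file headers. The assay is labelled total RNA sequencing, while the cited library protocol is named for poly(A) RNA.

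Symbols came from GENCODE vM21 and matched 50376 of 50600 identifiers. Merged exon lengths were those of the files. Overlap on the other strand meant at least 1 shared exonic base. Pairs needed 30 counts in all, and 0.5 was added to counts for log2 ratios. CPM and TPM were computed from the counts with Python 3.11.15 and pandas 2.3.3. Libraries were compared with edgeR 4.0.16 (TMM, mean count of 10 or more, Benjamini-Hochberg at 0.05) in R 4.3.3, and levels were set against 1 TPM with limma 3.58.1 on genes with 10 or more counts. The SE of an edgeR change was derived from its F value. DESeq2 1.42.0 was an alternative. In the comparison of libraries the lone one is assumed to vary like the others. Shares carry Wilson 95% intervals, and intervals and floors (3 counts) cover counting error only, since PCR copies of a fragment cannot be recognised.

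The members and lists were chosen with earlier results of these data known. Named genes are the members, the genes opposite them, the nearest pairs, up to 3 genes per list by counts per kb, and list genes called apart. Other list genes (Pdrg1, Hsf2, Aacs, Vbp1, Pfdn4, Rptor, Uri1, Uxt, Acat2, Il4) complete small counts, and Tubb6 and Stip1 are also named for their changes, chosen after their values were seen. Cd3e and Il5 are named for their opposite-strand exons. TMM on genes without opposite-strand exons and longest-transcript lengths were chosen after seeing the data.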

Additional observations from a re-analysis of the deposited data

Results flagged for a closer look

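In the shallow replicate 2, which no level or ratio uses, Acat3 had 13 counts and Tcp1 had 4 counts of 5016, both above the floor of 3 counts. These were drawn out because the library stands outside the measurements of the other 3.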

How the results depend on the processing

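No paired analysis was possible because the labels give a single group. In replicate 3 the counts of genes higher and lower were 50 and 759. They became 63 and 260 with DESeq2 size factors (2 members lower), 0 and 0 with the DESeq2 Wald test (0 members), 77 and 612 with no filter on low counts (2 members), and 3 and 1 with TMM on genes without opposite-strand exons (0 members). Leaving out a library gave 14 to 193 higher and 455 to 858 lower, with 0 to 1 member higher. In replicate 1, 3 genes were higher, 1 with the Wald test, 1 with the class TMM, and 6 to 605 without replicate 3 or 4 (2 to 33 lower, up to 3 members higher). In replicate 4, 2 genes were lower, 0 with the Wald test, 0 with the class TMM and 5 to 12 without replicate 3 or 1. There, 1 was higher with no filter, and 1 to 411 when a library was left out (up to 2 members). Changes that turned sign under the class TMM in replicate 3 were Cct6a to 0.31 and Cct8 to 0.041. Genes below 1 TPM numbered 261, 556 on log2(TPM + 1), 2854 with no filter and 24 to 287 when a library was left out. Genes above numbered 1864 with replicate 2 added. The log2 ratio of Acat3 to Tcp1 was 2.56 on raw counts with no division by exon length, 3.42 with replicate 2 and 3.23 with longest transcripts. That of Tcp1 to Mrpl18 was 6.58, 3.88 and 5.09. On raw counts, Cct7 to Pradc1 was -0.16 and Cct8 to Usp16 was -0.0088, with 0.57 for the latter on longest transcripts. Longest transcripts moved levels to 259 (Tcp1), 2440 (Acat3), 7.24 (Cct3), 17.1 (Cct4), 25.1 (Cct6a) and 15.9 CPM per kb (Cct7). The cause of these shifts was not tested. Depth limits the subunits other than Tcp1, with 20 to 231 counts in the deep libraries.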
